A study of Mus musculus with 6 samples.

Results

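Non-classical MHC class I genes and the NKG2 receptors that read them were followed in single-cell RNA sequencing libraries of mouse ovarian tumors. The 9 genes, of 32285 in the deposited table, were 5 on the ligand side (H2-T22, H2-T23, H2-Q4, H2-Q6 and H2-Q7) and 4 on the receptor side (Klrc1, Klrc2, Klrd1 and Klrk1). They were selected on symbol with the summed unique molecular identifiers (UMIs, each a captured RNA molecule) of these libraries already known, so the values below are a description with no test. The 6 libraries came from 1 mouse each. They were a control, the single treatments 2DG, 2FF and anti-PD-L1, and both pairings with the antibody, 2FF plus anti-PD-L1 (here the 2FF combination) as well as 2DG plus anti-PD-L1 (the 2DG combination), and per-library values are given in the order control, 2DG, 2FF, antibody alone, 2DG combination, 2FF combination. 2DG is 2-deoxy-D-glucose, and 2FF is 2F-peracetyl-fucose in the labels but 2-fluoro-L-fucose in the study's text. Both are sugar analogs that interfere with glycan building, and anti-PD-L1 is an antibody against a checkpoint ligand. By the study's methods these were female C57BL/6 mice, 6 to 8 weeks old, with orthotopic tumors of KPCA cells, a cultured mouse ovarian cancer line. Treatment with 2DG or the antibody began once tumors were palpable (day 9), 2FF was given by mouth to mice whose tumor cells had also been kept in 2FF before injection, controls received solvent and control rat IgG, and mice were sacrificed on day 30. The labels give the tissue as lymph node and the design text speaks of young and aged animals. The groups here follow the treatment, which labels and study name alike apart from the full name of 2FF. Both the 2DG and the 2FF comparisons draw on the same control and the same antibody library.

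A library held 61859753 to 73885214 UMIs, and 51633 of 57078 barcodes passed the limits of 250 genes and 5% mitochondrial UMIs. Any 2 libraries shared 16 to 34 barcodes. Cells were put into 13 classes by UMIs of marker genes, none of them among the 9. CD8 T cells (Cd3 genes with Cd8a or Cd8b1) numbered 117 in the control library and 1090 to 1941 in the others, and NK cells (Ncr1 or Klrb1c without any Cd3 UMI) 19 and 143 to 377. In CD8 T cells the Cd3 genes summed to 1887 to 2750 counts per 1000000 UMIs of the class (CPM), the NK markers to 2.4 to 8.8 CPM and the C1q genes of macrophages to 17.5 to 28.2 CPM, while the neutrophil genes S100a8 and S100a9 summed to 113 CPM in the control library and 3.24 to 13.9 in the others. The tumor gate (keratins and Epcam without Ptprc) held 3 to 23 cells per library. Intervals are 95% intervals that cover counting error only. With 1 mouse per group, a difference between mice or library preparations cannot be told apart from one between treatments. A class level also cannot separate fewer expressing cells from less RNA per cell.

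H2-T23 encodes Qa-1, which displays peptides cut from the leader sequences of classical class I proteins to receptors made of CD94 (Klrd1) paired with NKG2A (Klrc1, inhibitory) or NKG2C (Klrc2, activating). H2-Q6 and H2-Q7 belong to the Qa-2 group, H2-Q4 encodes the Qb-1 protein, and H2-T22 is recognised by some gamma delta T cells. Klrk1 encodes NKG2D, an activating receptor that does not pair with CD94 and binds stress-induced ligands such as Raet1 and Ulbp1 proteins. Interferons raise class I genes in many cell types, and NKG2A is known as a checkpoint on NK and activated CD8 T cells.

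In GRCm38 (GENCODE M21) the ligand genes lie on chromosome 17, H2-Q4 at 35379617-35385290, H2-Q6 at 35424850-35430055 and H2-Q7 at 35439155-35443773 on the plus strand, and H2-T23 at 36029773-36032855 and H2-T22 at 36037128-36042747 on the minus strand. The receptor genes lie within the NK gene complex on chromosome 6, Klrd1 at 129591782-129598775 on the plus strand, and Klrk1 at 129610323-129623864, Klrc2 at 129647496-129660689 and Klrc1 at 129666015-129678973 on the minus strand. All 9 are protein coding. The stretches before the starts of the ligand genes are shown, read 5′ to 3′ along the gene from RefSeq promoters (GRCm38.p6, 8 of 9 genes matched, Klrd1 not). Any relation of these letters to the levels given further down was not tested. Capitals mark GAAANNGAA, the core of interferon-stimulated elements, or GGGGATTCC, a kappa B-type site, on either strand. H2-T22 (chr17:36042748-36042942, minus strand) and H2-T23 (chr17:36032806-36032835, minus strand) held the first.
H2-T22: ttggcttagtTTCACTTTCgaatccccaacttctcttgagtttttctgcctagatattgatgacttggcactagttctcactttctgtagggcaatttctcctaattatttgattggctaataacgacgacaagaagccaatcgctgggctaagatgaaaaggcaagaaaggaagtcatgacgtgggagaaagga
H2-T23: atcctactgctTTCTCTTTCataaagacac
The H2-T23 match lies before the RefSeq start but inside the 5′ UTR of the GENCODE coding transcript, so only 30 bases around it are shown. H2-Q6 (chr17:35424650-35424849, plus strand) and H2-Q7 (chr17:35438955-35439154, plus strand) held the second.
H2-Q6: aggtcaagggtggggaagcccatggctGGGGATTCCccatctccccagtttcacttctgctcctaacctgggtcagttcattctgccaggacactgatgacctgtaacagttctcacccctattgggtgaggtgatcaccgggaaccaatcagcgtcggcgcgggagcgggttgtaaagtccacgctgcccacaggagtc
H2-Q7: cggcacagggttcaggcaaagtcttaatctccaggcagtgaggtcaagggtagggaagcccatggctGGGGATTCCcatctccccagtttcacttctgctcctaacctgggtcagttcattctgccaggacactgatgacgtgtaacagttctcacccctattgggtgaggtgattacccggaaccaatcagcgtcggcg
H2-Q4 (chr17:35379417-35379616, plus strand), 83.7% identical to H2-Q6 over the aligned window, held neither of the exact strings.
H2-Q4: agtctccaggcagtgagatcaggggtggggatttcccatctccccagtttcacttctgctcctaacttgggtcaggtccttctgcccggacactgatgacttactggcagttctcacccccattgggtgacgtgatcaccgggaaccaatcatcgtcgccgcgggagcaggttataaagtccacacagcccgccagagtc
Within 200 bases before the start, GAAANNGAA occurred in 5.57% and GGGGATTCC in 0.155% of 32851 promoters, and of the receptors Klrk1 held 1 match of the first. Only these exact strings were searched, so related sites with other letters stay in lower case. The H2-Q4, H2-Q6 and H2-Q7 stretches each hold tttcacttc, and H2-Q4 holds ggggatttcc, which are close to the strings searched. Lower case therefore does not mean that a site of either kind is absent. A match is a description of the letters and not of a bound site.

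H2-T23 was low in the 2DG and anti-PD-L1 libraries and higher in the other 4, in every class with enough cells. In CD8 T cells it was at 197 CPM in the control library (168 to 229), 81.0 in 2DG (75.4 to 87.0), 166 in 2FF (159 to 173), 66.9 in anti-PD-L1 (62.2 to 71.9), 171 in the 2DG combination (164 to 179) and 204 in the 2FF combination (195 to 213). The intervals of the 2 low libraries lay apart from those of the other 4. A UMI of H2-T23 was seen in 39.7% and 34.7% of CD8 T cells of the 2DG and anti-PD-L1 libraries and in 60.8% to 74.3% of the others. With each cell thinned to 1000 UMIs the shares were 7.45% and 6.46% against 15.3% to 18.4%. The single cell with most H2-T23 UMIs gave at most 4.82% of the UMIs of its library, so the sums were not carried by a few cells.

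**Figure D1:**
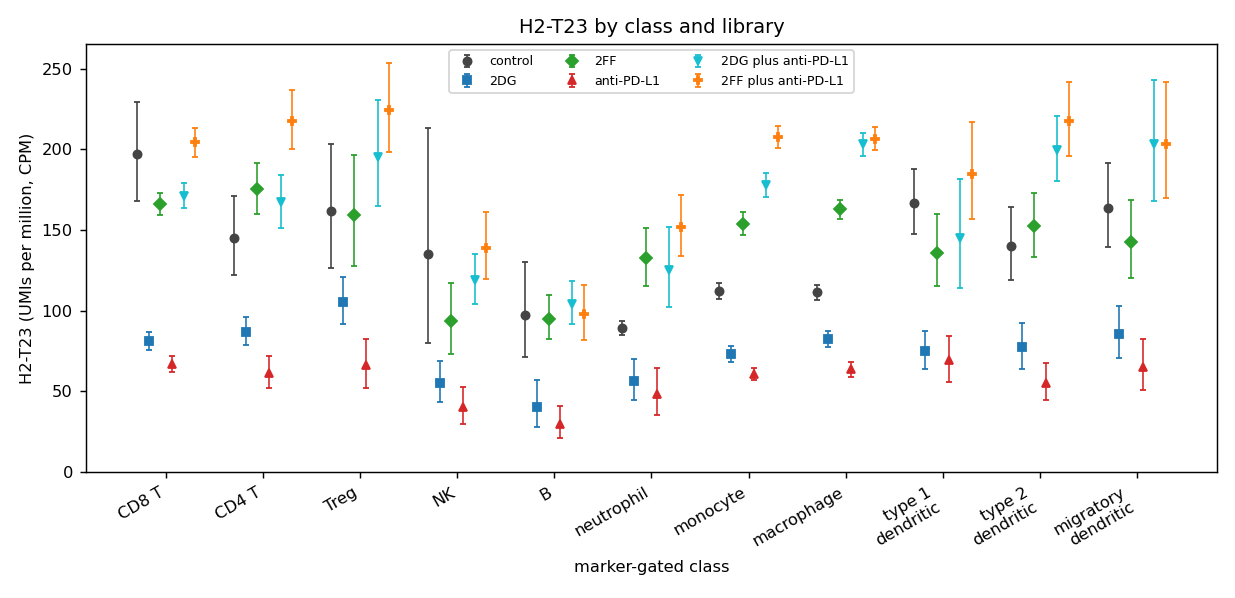
H2-T23 in CPM (linear axis from 0) for 11 marker-gated classes, with 1 point per library and bars for exact 95% Poisson intervals (counting error only). The 2DG (blue squares) and anti-PD-L1 (red triangles) points are the lowest 2 in each class, and the control NK point rests on 19 cells.

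The same 2 libraries were lowest outside T cells. In monocytes H2-T23 was at 112, 73.2, 154, 60.8, 178 and 208 CPM in the order given above, in macrophages at 111, 82.4, 163, 63.7, 203 and 207, and in B cells at 97.6, 40.6, 95.2, 29.98, 104 and 97.9. Among 10 classes with at least 20 cells in each library, the 2DG and anti-PD-L1 libraries were the 2 lowest in 10, with anti-PD-L1 below 2DG in all 10, and the highest library stood 2.67-fold (type 1 dendritic cells) to 3.95-fold (type 2 dendritic cells) above the lowest. In NK cells, where the control library had 19 cells, the other 5 libraries gave 40.2 CPM in anti-PD-L1, 55.1 in 2DG and 93.4 to 139 in the rest. By median over libraries the classes ran from CD8 T cells (169 CPM) and Treg cells (160.4) through CD4 T cells (156), migratory (153), type 2 (146) and type 1 (141) dendritic cells, macrophages (137), monocytes (133) and neutrophils (107) to B (96.4) and NK cells (93.4). The ranges over libraries of all neighbours in that order overlapped, so the spread between libraries within a class was larger than the steps between classes. In the tumor gate H2-T23 was at 81.1 to 212 CPM in 5 libraries and had no UMI in the 3 control cells, too few cells to compare.

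Libraries were compared by log2 ratios after 5 was added to each CPM, for genes whose UMIs reached 50 in the pair, and a gene is called past 2-fold when the ratio is beyond 1 in either direction. For the 2FF combination over anti-PD-L1, H2-T23 was past 2-fold and higher in 11 of 11 classes. The log2 ratio was 1.54 in CD8 T cells (1.43 to 1.66), where 0.666% of all genes tested were past 2-fold, 1.75 in CD4 T cells (1.51 to 1.99, 0.538% of genes) and 1.69 in Treg cells (1.35 to 2.03, 1.37%). It was 1.67 in NK cells (0.891% of genes), 1.56 in B cells (1.93%), 1.55 in neutrophils (3.03%), 1.69 in monocytes (0.789%) and 1.62 in macrophages (0.762%). Type 1 dendritic cells gave 1.35 (4.86% of genes), type 2 1.89 (2.05%) and migratory dendritic cells 1.57 (2.65%). The base library decides this count, which was 0 of 10 classes against control in its place, 0 of 11 against 2FF and 0 of 11 against the other combination. Against 2DG it was 11 of 11. For the 2DG combination over anti-PD-L1, H2-T23 had log2 ratios from 1.01 (type 1 dendritic cells) to 1.77 (type 2 dendritic cells).

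Other class I genes differed in whether this pair of libraries was lowest. B2m, the light chain shared by class I proteins, had the pair lowest in 6 of 10 classes (in CD8 T cells 2064, 1506, 1773, 1279, 1798 and 1957 CPM in the library order above), as did Tap2, a peptide transporter subunit. H2-K1, a classical class I heavy chain, did in 0 of 10, at 1486, 1781, 1866, 1673, 1897 and 1702 CPM in CD8 T cells. H2-D1, the other classical heavy chain listed, did in 5 of 10, and in CD8 T cells it was at 1010.2, 954, 1278, 868, 1205 and 1047 CPM, lowest in the same pair. The rest of the listed genes of class I presentation, Tap1, Tapbp, Nlrc5, Erap1, Psmb8, Psmb9, Calr and Pdia3, each had the pair lowest in 0 of 10. There were 6517 genes with at least 50 UMIs over the libraries in all 10 classes. The pair was lowest in every class for 4 of them, H2-T23, Btf3, Tpt1 and Zfp36. The pair was taken from the levels of H2-T23 itself, so its place among the 4 was set by that choice. The other 3 were singled out after their values were seen. Within a class the pair, 1 of 15 pairs that 6 libraries form, was lowest for 5.54% to 7.69% of genes. Zfp36, a regulator of mRNA decay, is also among the 5 genes whose levels over the 6 libraries in CD8 T cells were most like those of H2-T23 (Pearson's r of log2 CPM + 5, 838 genes compared, libraries not independent of one another in depth or class make-up). These were Rpa3 (r = 0.98), Gm43065 (0.97), Sdhd (0.95), Zfp36 (0.95) and Fam155a (0.95). Of the 90-base stretches in the last 500 bases of the longest coding H2-T23 transcript, 12.2% also occurred in transcripts of Hook2 or Rab33b, where a read could not be placed on 1 gene.

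H2-T22 was also lowest in 2DG and anti-PD-L1 in CD8 T cells, with a smaller spread. This pair was lowest for H2-T22 in only 3 of the 10 classes with at least 20 cells in each library. Control was lowest in 4 of the 10, which were neutrophils, monocytes, macrophages and Treg cells. In CD4 T cells anti-PD-L1 was lowest, and 2DG was level with the 2DG combination (log2 ratio of the combination over 2DG 0.0007, -0.23 to 0.23). In CD8 T cells it was at 128, 98.5, 117, 84.6, 113 and 118 CPM in the usual order, a 1.51-fold range. Its control interval (105.05 to 155) began just above the end of that of 2DG (92.2 to 104.99) and overlapped those of 2FF and both combinations. In neutrophils, monocytes and macrophages the control library was the lowest for H2-T22 (23.6, 36.0 and 41.1 CPM) and the other 5 ran from 39.2 to 67.2, 47.4 to 87.7 and 49.9 to 82.1 CPM. Control was lowest in Treg cells too, on 35 UMIs. Of all genes with at least 50 UMIs, control was lowest for 28.0%, 41.6%, 24.4% and 28.4% in these classes. The H2-T22 log2 ratios over control in Treg cells were 0.34 (-0.15 to 0.83) for 2DG, 0.84 (0.30 to 1.39) for 2FF and 0.36 (-0.15 to 0.87) for anti-PD-L1. No H2-T22 ratio in CD8 T cells was past 2-fold in the 7 comparisons, the largest being -0.57 (-0.85 to -0.29) for anti-PD-L1 over control.

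H2-Q6 and H2-Q7 showed another pattern, low in the control library in neutrophils, monocytes and macrophages and nearly level in CD8 T cells. Being lowest in control was common. It held for 28.0% of neutrophil, 41.6% of monocyte and 24.4% of macrophage genes with at least 50 UMIs over the libraries. Dendritic classes varied. In type 2 dendritic cells H2-Q6 had log2 ratios over control of 0.0079 for 2DG, -0.56 for 2FF and -0.39 for anti-PD-L1. H2-Q7 had 0.31, 0.29 and -0.03 there, and 0.41, 0.74 and 0.27 in migratory dendritic cells. In neutrophils H2-Q7 was at 28.9 CPM in the control library (552 UMIs in 3083 cells), 195 in 2DG, 196 in 2FF, 168 in anti-PD-L1, 183 in the 2DG combination and 178 in the 2FF combination. H2-Q6 was at 12.1 CPM in control neutrophils and 110.5, 96.2, 88.8, 104 and 121 in the same order. The control library stood apart from the other 5 in both genes, and those 5 lay within a narrow band. In monocytes H2-Q7 was at 61.7 CPM in control and 141 to 203 in the others, and in macrophages at 95.3 and 205 to 299. The CD8 T class held the same gene at 622 (control), 641, 707, 562, 675 and 610 CPM, and H2-Q6 at 215, 220.5, 176, 198, 189 and 181 CPM. Neither had the control library as an outlying value there. Treg cells differed from CD8 T cells in this, with H2-Q7 lowest in the control library at 613 CPM and at 819, 949, 816, 831 and 792 in the others. Control was lowest for 28.4% of all Treg genes with at least 50 UMIs. The H2-Q7 log2 ratios over control in Treg cells were 0.42 (0.23 to 0.60) for 2DG, 0.63 (0.42 to 0.84) for 2FF and 0.41 (0.22 to 0.60) for anti-PD-L1. These were above 0 beyond counting error and short of 2-fold. H2-Q6 in Treg cells did not follow, at -0.18 (-0.47 to 0.12), -0.20 (-0.57 to 0.16) and 0.04 (-0.27 to 0.34). In B cells the H2-Q7 ratios were 0.13 (-0.22 to 0.49) for 2DG, 0.71 (0.40 to 1.02) for 2FF and 0.27 (-0.06 to 0.60) for anti-PD-L1. NK cells gave 0.26 (-0.11 to 0.64), 0.57 (0.19 to 0.95) and 0.20 (-0.17 to 0.58), resting on 60 control UMIs. H2-Q6 for 2FF over control was at -0.11 (-0.49 to 0.28) in B and -0.26 (-0.70 to 0.18) in NK cells.

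**Figure D2:**
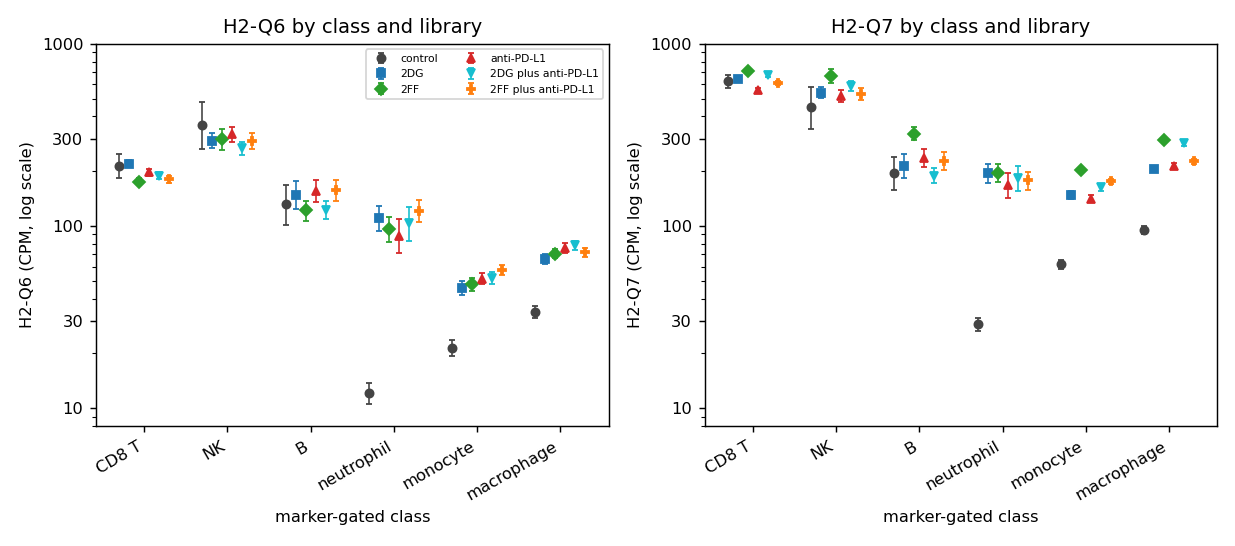
H2-Q6 (left) and H2-Q7 (right) in CPM on a log axis for 6 classes, with 1 point per library and exact 95% Poisson intervals. The control points (dark circles) lie below the other 5 libraries in neutrophils, monocytes and macrophages and among them in CD8 T cells.

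Against the control library, H2-Q7 in neutrophils had log2 ratios of 2.56 for 2DG (2.36 to 2.75), 2.56 for 2FF (2.38 to 2.75) and 2.35 for anti-PD-L1 (2.12 to 2.59), and H2-Q6 had 2.76, 2.57 and 2.46. Past 2-fold, all higher, were 2 of 5 ligands for 2DG (H2-Q6 and H2-Q7), 4 for 2FF (these with H2-T22 and H2-Q4) and 2 for anti-PD-L1, where 11.3%, 9.47% and 7.35% of all neutrophil genes tested were past 2-fold. Many genes thus differed between control and treated neutrophils. In monocytes 1, 3 and 2 ligands were past 2-fold (7.15%, 6.53% and 6.08% of genes), and H2-Q7 was among them each time, with log2 ratios of 1.20, 1.64 and 1.13. In macrophages 1, 1 and 2 were (2.09%, 2.9% and 2.21% of genes), with H2-Q7 at 1.07, 1.599 and 1.12. These 3 comparisons share the control library. Neutrophils were 34.0% of the control cells and 2.29% to 4.59% of the others, and in them Ly6c2, a monocyte marker, was at 92.4 CPM in control and 220 to 478 in the other libraries. Whether the gate holds the same neutrophil states in each library was not tested. When cells with any Csf1r UMI were left out (a gate added after the data were seen), control neutrophils were at 24.01 CPM of H2-Q7 and the others at 171 to 224.

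Interferon-responsive genes, by list median, were higher over control along with H2-Q6 and H2-Q7 in neutrophils, monocytes and macrophages. The order of the comparisons was shared in some cases and not in others. In monocytes and macrophages 2FF had the highest list median (1.48 and 1.09) and the highest H2-Q7 log2 ratio (1.64 and 1.599). The highest H2-Q6 log2 ratio there was in anti-PD-L1 (1.09 and 1.06). In neutrophils 2DG had the lowest list median (0.67) and the highest H2-Q6 log2 ratio (2.76). The part of these genes in the result was not tested. Of 8 such genes, 3, 7 and 5 were past 2-fold higher in neutrophils of 2DG, 2FF and anti-PD-L1 over control, with list medians of 0.67, 1.58 and 1.16 beside 0.15, 0.17 and 0.022 for all genes tested. In monocytes 3, 8 and 6 of the 8 were past 2-fold higher in these comparisons, with list medians of 0.95, 1.48 and 1.34 beside 0.16, 0.12 and 0.13. The macrophage counts were 3, 4 and 4, with list medians of 0.88, 1.09 and 0.80 beside 0.024, -0.015 and 0.036. Gbp2, an interferon-induced GTPase, was at 229.9 CPM in control neutrophils and 658 to 1438 in the others. Of 12 genes of classical class I presentation, 4, 8 and 4 were past 2-fold higher in the same comparisons, H2-K1 among them each time (407 CPM in control, 951 to 1209 in the others). Within the CD8 T class no gene of either list was past 2-fold in any of the 7 comparisons. Of all genes tested there 0.488% to 3.01% were, so a count of 0 is near that share. H2-Q4 had intermediate values, with 38.4 CPM in control neutrophils and 75.4 to 118 in the others, and 95.5 to 134 CPM in CD8 T cells.

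The classes fell into a high and a low set for H2-Q7. Its median over libraries was 818 CPM in Treg cells, 669 in migratory dendritic cells, 632 in CD8 T, 614 in CD4 T and 540 in NK cells, followed at a distance by type 1 dendritic (236), B (221), macrophage (220), neutrophil (181), type 2 dendritic (168) and monocyte (156) classes. Within each of these 2 sets the ranges over libraries of neighbours overlapped, and between NK cells (519 at the lowest of 5 libraries) and type 1 dendritic cells (297 at the highest) they did not. H2-Q6 ran from 366 CPM in migratory dendritic cells and 295 in NK cells to 49.8 in monocytes. Values of different genes are not compared here, since 3′ counts also depend on how well each transcript is captured. Of the 90-base stretches at the H2-Q6 end, 10.9% also occurred in transcripts of other genes, H2-Q4 among them, against 0% at the H2-Q7 end.

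The receptors were counted in CD8 T and NK cells, and B cells gave the background. Over libraries, the 4 receptors were at 0 to 3.84 CPM in B cells, whose median depth was 4771 to 6086 UMIs. A UMI of Klrc1 was seen in 0% to 0.997% of B cells, against 30.6% to 59.2% of CD8 T cells at a median depth of 5859 to 7936 UMIs. The 67 control B cells gave no Klrc1 UMI, which by a limit of 3 counts allows a share of cells with a UMI of up to 4.48%.

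Klrc1 was lowest in the 2DG library in CD8 T cells. Its level was 164 CPM in control (137 to 193), 92.3 in 2DG (86.3 to 98.7), 216 in 2FF (208 to 224), 185 in anti-PD-L1 (177 to 194), 214 in the 2DG combination (205 to 222) and 176 in the 2FF combination (168 to 184). The 2DG interval lay below all others, while those of control, anti-PD-L1 and the 2FF combination overlapped. Klrc2, which encodes the activating counterpart of NKG2A, was at 70.0 CPM in control (53.3 to 90.2) and 64.3 in 2DG (59.3 to 69.7) and at 146, 125, 185 and 132 in 2FF, anti-PD-L1, the 2DG combination and the 2FF combination. The first 2 overlapped and lay apart from the other 4. Of the 90-base stretches at the end of the Klrc1 transcript, 32.6% also occur in Klrc2 transcripts, where a read could not be placed on 1 gene. At the Klrc2 end 0% occurred in transcripts of another gene, so the overlap bears on reads from the Klrc1 end.

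Klrd1, which both NKG2A and NKG2C need at the cell surface, was at 330 CPM in control, 252 in 2DG, 474 in 2FF, 283 in anti-PD-L1, 429.5 in the 2DG combination and 344 in the 2FF combination. The 2FF library was highest and 2DG lowest, and the control interval (292 to 371) overlapped those of anti-PD-L1 (273 to 293) and the 2FF combination. Klrk1 was at 222, 152, 216, 146, 240.3 and 206 CPM in the same order. Its 2 lowest libraries were 2DG and anti-PD-L1, with overlapping intervals (144 to 160.3 and 139 to 153), and the control, 2FF and the 2FF combination intervals overlapped one another.

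Shares of CD8 T cells with a UMI followed the levels in part. Klrk1 had its lowest level in anti-PD-L1 but its lowest thinned share in 2DG. For Klrc1 they were 40.2%, 30.6%, 59.2%, 53.2%, 57.3% and 56.1%, and after thinning to 1000 UMIs 12.7%, 7.82%, 18.6%, 15.5%, 18.1% and 15.2%. For Klrc2 the thinned shares were 5.996% in control and 5.35% in 2DG against 11.3% to 15.7% in the others. Thinned shares of Klrd1 ran from 20.3% in 2DG to 35.0% in 2FF and those of Klrk1 from 12.6% in 2DG to 19.4% in the 2DG combination. Cells of the 2FF combination were the deepest, which raises its unthinned shares.

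**Figure D3:**
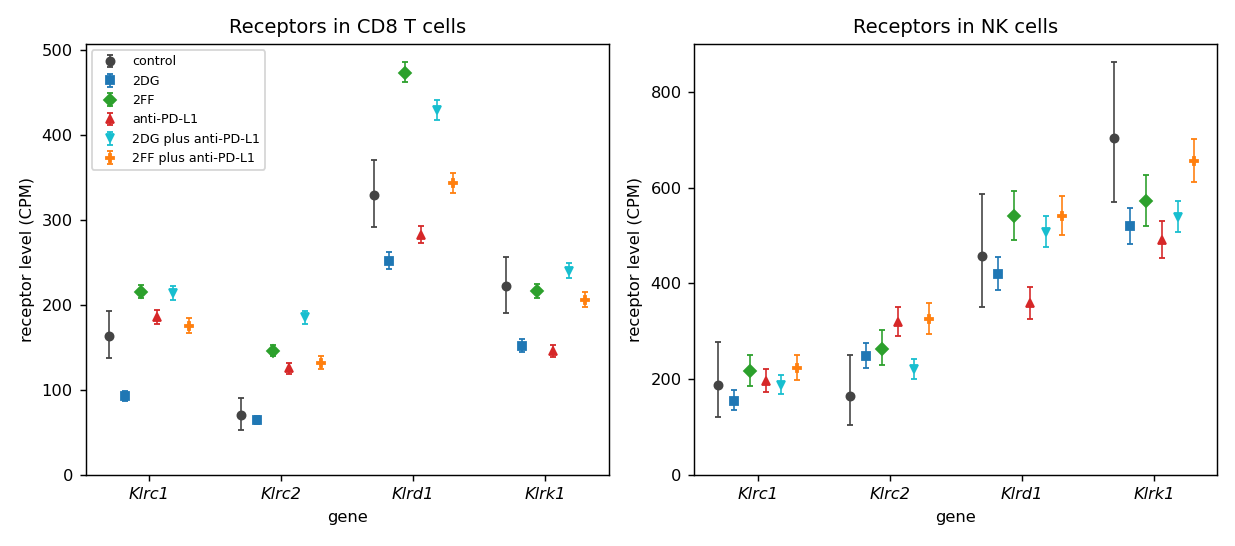
The 4 receptors in CD8 T cells (left) and NK cells (right) in CPM, linear axes from 0, with 1 point per library and exact 95% Poisson intervals. In CD8 T cells the 2DG point is lowest for Klrc1, Klrc2 and Klrd1, and in NK cells the control points rest on 19 cells and have the widest bars.

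Of the 9 genes in CD8 T cells, 1 was past 2-fold for 2DG over control (H2-T23, log2 ratio -1.23, -1.46 to -0.996), where 2.05% of 9587 genes tested were. For 2FF over control it was Klrc2 alone, at 1.01 (0.66 to 1.36, 2.93% of genes), which rests on 59 control UMIs and did not stay past 2-fold in 4 of 9 alternatives. For anti-PD-L1 over control it was H2-T23, at -1.49 (-1.72 to -1.25, 3.01% of genes). For the 2DG combination over anti-PD-L1 it was H2-T23, at 1.29 (1.18 to 1.41, 0.724% of genes), and the same gene was the 1 for the 2FF combination over anti-PD-L1. Past 2-fold for the 2DG combination over 2DG were 3 genes, H2-T23 at 1.03 (0.92 to 1.15), Klrc1 at 1.17 (1.06 to 1.27) and Klrc2 at 1.46 (1.34 to 1.58), where 0.974% of 10878 genes were. For the 2FF combination over 2FF it was 0 of 9 (0.488% of genes), with ratios from -0.46 for Klrd1 to 0.29 for H2-T23. Medians over all genes tested lay between -0.065 and 0.043 in these comparisons. Comparisons with the same base library share its counts.

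**Figure D4:**
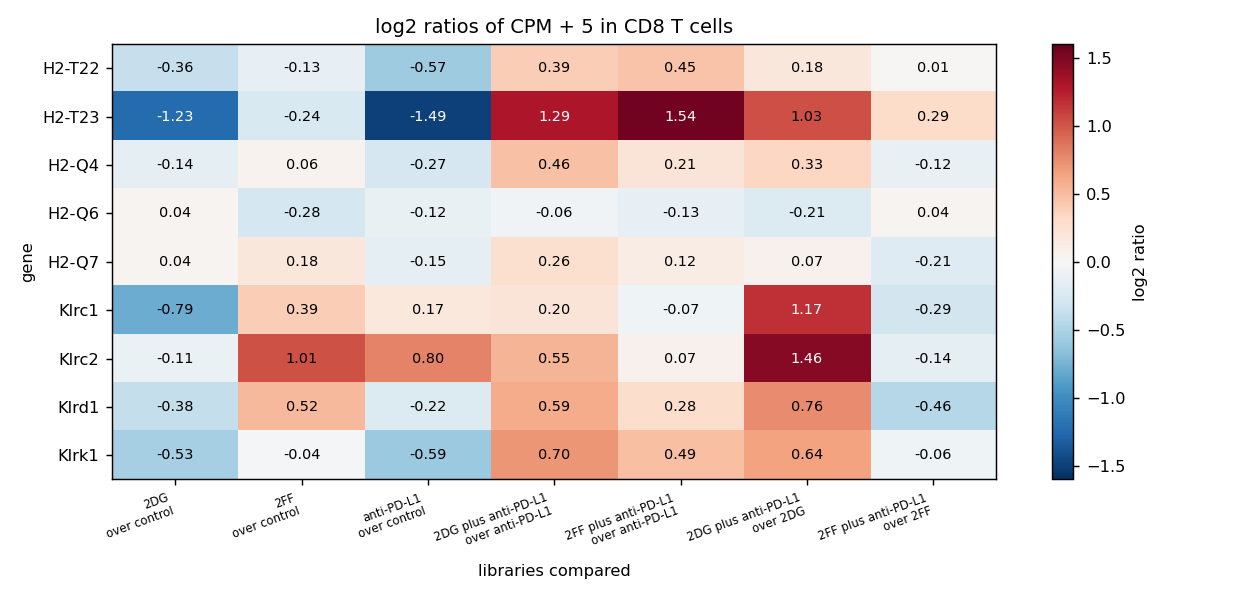
log2 ratios of CPM + 5 for the 9 genes (rows) in the 7 comparisons of libraries (columns) in CD8 T cells, blue lower and red higher. H2-T23 has the largest ratios in 4 columns, and the column of the 2DG combination over 2DG holds 3 genes beyond 1.

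In NK cells the receptors varied less, and unthinned shares with a UMI were 41.0% to 52.6% for Klrc1, 52.6% to 74.4% for Klrc2, 76.1% to 87.2% for Klrd1 and 83.6% to 94.7% for Klrk1. Klrc1 was at 155 to 223 CPM in the 5 libraries with over 100 NK cells, a 1.44-fold range, and at 188 CPM in the 19 control cells (121 to 277). Klrc2 was at 248.96 CPM in 2DG, 264 in 2FF, 319 in anti-PD-L1, 221 in the 2DG combination and 326 in the 2FF combination, and at 165 in control (103 to 249.8). Klrd1 ran from 359 CPM in anti-PD-L1 to 542 in the 2FF combination and Klrk1 from 491 to 655 in the same libraries, with 457.5 and 705 in control. Klrk1 was higher in NK than in CD8 T cells in 6 of 6 libraries, as the ranges of 491 to 705 and 146 to 240.3 CPM did not overlap. Klrc2 was higher in NK cells too (165 against 70.0 in control, 248.96 against 64.3 in 2DG, 221 against 185 in the 2DG combination), whereas the ranges of Klrc1 overlapped between the 2 classes.

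Past 2-fold in NK cells was H2-T23 for 2DG over control (-1.22, -1.93 to -0.51, 9.9% of genes), 0 genes for 2FF over control (8.26%) and H2-T22 (-1.17) and H2-T23 (-1.63) for anti-PD-L1 over control (10.2%). The control side rests on 18 UMIs of each. It was H2-T23 again for the 2DG combination over anti-PD-L1 (1.46, 1.07 to 1.85, 1.49% of genes) and over 2DG (1.05, 0.70 to 1.39, 1.62%), as it was for the 2FF combination over anti-PD-L1 given earlier, and 0 genes for the 2FF combination over 2FF (0.943%). No receptor was past 2-fold in NK cells in the 7 comparisons.

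Klrc1 was seen more often in CD8 T cells with a Klrd1 UMI than in those without. In the 2FF library, Klrc1 was seen in 63.7% of 1542 cells with a Klrd1 UMI and 41.6% of 399 cells without, and after thinning to 1000 UMIs, with cells split on the thinned UMIs too, in 21.9% and 17.1%. The direction was the same in 6 of 6 libraries, thinned or not, the closest pair of thinned shares being 17.2% and 14.99% in anti-PD-L1. Klrc2 was likewise more frequent in cells with Klrc1 (thinned, 14.9% to 24.3% with and 4.29% to 13.6% without), a pair of genes with shared stretches at the Klrc1 end.

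CD8 T cells were also split by Havcr2, which encodes the checkpoint TIM-3 found on exhausted cells, and by Tcf7, a factor of stem-like and naive cells. In cells with a Havcr2 UMI, thinned shares of Klrc1, Klrc2, Klrd1 and H2-T23 were higher in 6 of 6 libraries, and that of Klrk1 in 2 of 6. In the 2FF library the thinned share of Klrc1 was 22.6% with and 17.7% without Havcr2, and that of Klrd1 39.9% and 33.3%. Some pairs were close, as in anti-PD-L1 for Klrc2 (11.7% and 11.1%) and H2-T23 (7.06% and 6.55%). In cells with a Tcf7 UMI, Klrc1 and Klrd1 were less frequent in 6 of 6 libraries, as in the 2DG combination (Klrc1 10.6% with and 18.5% without, Klrd1 19.7% and 33.0%). The control library had 18 cells with a Tcf7 UMI before thinning. Its unthinned intervals overlapped for Klrc1 (9.69% to 53.5% with, 32.5% to 52.8% without) and Klrd1 (21.5% to 69.2% and 53.4% to 73.1%). Klrc2 was less frequent in Tcf7 cells in 5 of 6 libraries and Klrk1 in 4 of 6. For Klrc1 the libraries kept their order in cells with and without Havcr2, with 2DG lowest in both (10.4% and 7.41%). Cells of 1 library share their mouse, so these shares describe the libraries.

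**Figure D5:**
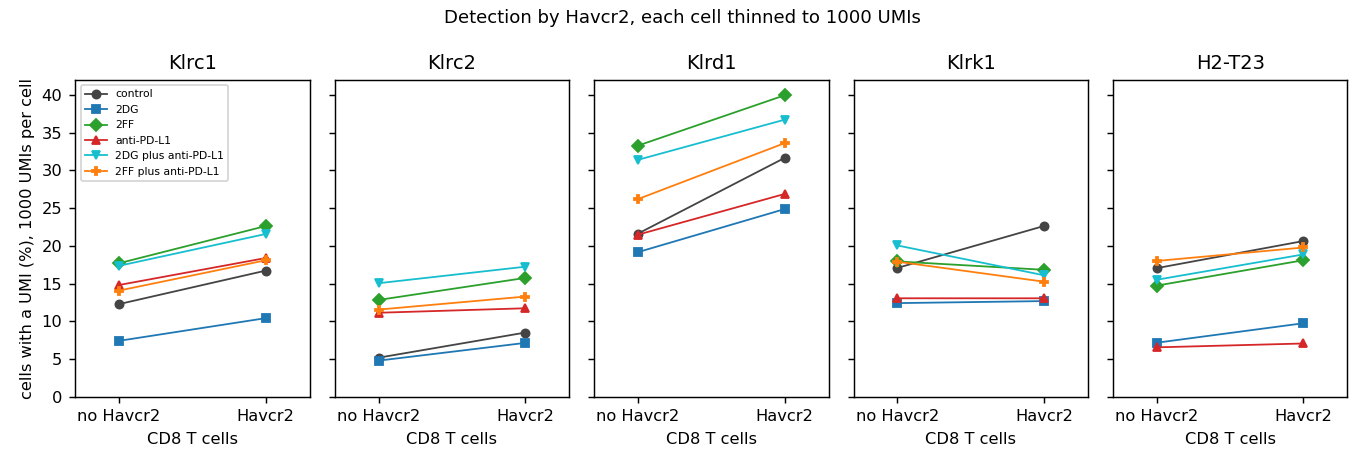
Percent of CD8 T cells with a UMI of each gene, after thinning each cell to 1000 UMIs, in cells without and with a Havcr2 UMI, with 1 line per library. Lines for Klrc1, Klrc2, Klrd1 and H2-T23 rise from left to right in all 6 libraries, and those for Klrk1 do not share a direction.

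Partners of these receptors in CD8 T cells were given by lists. Of the signalling adaptors, Hcst (DAP10, used by NKG2D) was at 320 CPM in control and 305, 184, 330, 304.5 and 222 in the others, and Tyrobp (DAP12, used by NKG2C) at 18.6 to 26.9, with 0 of 2 past 2-fold in the 7 comparisons. Of 8 NKG2D ligand genes 2 had enough UMIs. Raet1e was at 114, 70.7, 78.6, 55.4, 161 and 86.1 CPM and was past 2-fold higher in the 2DG combination over both anti-PD-L1 and 2DG, and Ulbp1 was at 14.3 to 20.4 CPM. Of 19 other lectin-like receptor genes of the NK complex, 7 to 13 were tested per comparison and 0 to 2 were past 2-fold, where 0.488% to 3.01% of all genes tested were. For the 2DG combination over 2DG these were Klrc3, a further NKG2 gene (4.12 CPM in 2DG and 19.9 in the combination), and Klri2 (28.8 and 77), with a list median of 0.087 beside -0.028 for all genes. Klri2 was also past 2-fold lower in 2DG over control, Klra7 lower in 2FF and in anti-PD-L1 over control, and Klra3 higher in the 2DG combination over anti-PD-L1. Of 13 further non-classical class I genes 4 or 5 were tested and 0 were past 2-fold in any of the 7 comparisons. Klri2 is also among the 5 genes most like Klrc1 over the 6 libraries in CD8 T cells, which were Tnfrsf9 (r = 0.93), Klri2 (0.93), Gldc (0.92), Uhrf2 (0.91) and Zc3h12c (0.90). Tnfrsf9, which encodes the costimulatory receptor 4-1BB, was at 211, 144, 260, 213, 317 and 225 CPM, lowest in 2DG and highest in the 2DG combination.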

How the data were processed

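For each library the authors deposited a matrix of UMI counts by gene and barcode, not normalized, made with Cell Ranger 7.0.0 (the version in the file headers and the methods; the submitters' processing notes name 3.1.0) on the mouse mm10 reference. Whether intronic reads were counted is not given in the sources used here. Members and gene lists were chosen with earlier results of these data known. Cells with under 250 genes or over 5% mitochondrial UMIs were left out, limits that the study's methods state and that had not been applied to the deposited matrices. UMI minimums of the class markers (2 for lineage markers, 3 for C1q genes, 1 for Cd8 or Cd4 genes) were set after the data had been seen. Cells passing more than 1 lineage were left out, which stood in for a doublet caller. Summed UMIs of a class in a library were scaled to CPM, and log2 ratios were taken after adding 5, which understates changes of low genes. Sums have exact Poisson, shares exact Clopper-Pearson and ratios delta-method Poisson intervals at 95%. There is no replicate, so no test was made and no p-value is given. Named are the 9 members, the genes of the lists, and the 5 genes most like H2-T23 and Klrc1, beside class markers and genes that share stretches with a member. Btf3 and Tpt1 are named as well, singled out after their values were seen. The ratio and its call were tested on simulated counts. Promoter letters came from RefSeq. Python 3.11.15, numpy 2.4.6, scipy 1.17.1 and biopython 1.88 were used. The values of 1 gene of the interferon list are not reported here.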

Additional observations from a re-analysis of the deposited data

How the results depend on the processing

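No paired analysis was possible because each group holds 1 library and the labels carry no replicate numbers, and no replicate could be left out. Of 18 counts of genes or classes past 2-fold, recomputed in 9 alternatives each (and 3 with another neutrophil gate, 4 with another base library, these added after seeing the data), 155 values stayed within 1.5 times the reported count and 14 moved. For 2FF over control in CD8 T cells the count was 0 under a mitochondrial limit of 10%, a gate asking 1 more marker UMI, CPM + 20, and centring of the ratios on the all-gene median. In NK cells, thinning cells to 1000 UMIs gave 0 for 2DG over control, anti-PD-L1 over control and the 2FF combination over anti-PD-L1, and the 2DG combination over 2DG gave 0 with 1 more marker UMI and with CPM + 20. For the 2FF combination over anti-PD-L1 in NK cells, the thinned H2-T23 UMIs (35.8) fell under the minimum of 50. The thinned log2 ratio there was 1.69. Thinning gave 5 of 11 classes for H2-T23 in the 2FF combination over anti-PD-L1, since in the others the thinned UMIs fell under the minimum of 50, and the thinned log2 ratios were 1.36 to 1.86 in all 11. The same count was 0 with control, 2FF or the 2DG combination as the base, and 11 of 11 with 2DG. Thinning raised the ligands past 2-fold in neutrophils of anti-PD-L1 over control from 2 to 4, and the cause was not tested. Of ratios of single genes, 1263 values stayed within the counting interval and 21 moved, 12 of them with CPM + 20, and 13 ratios changed sign in some alternative, none of them past 2-fold. Control NK cells (19) and CD8 T cells (117) limit what depth can show there.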

Other observations

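Outside CD8 T and NK cells, receptor UMIs were found in dendritic cells, CD4 T cells, monocytes and macrophages. Klrd1 was at 123 to 235 CPM in type 2 dendritic cells and 26.7 to 52.9 in migratory dendritic cells, beside 0 to 3.71 in B cells. Klrk1 was at 89.3 to 187 CPM in type 1, 62.6 to 170 in type 2 and 78.1 to 137 in migratory dendritic cells, whereas Klrc1 was at 0 to 3.03 CPM and Klrc2 at 0 to 11.1 CPM in these 3 classes. In gated CD4 T cells Klrd1 ran from 60.3 CPM in 2DG to 352 in the 2DG combination, with 103 in control, 281 in 2FF, 149.6 in anti-PD-L1 and 226 in the 2FF combination. In Treg cells it was at 2.54 to 17.9 CPM. Type 1 dendritic cells had 23 to 46 Klrd1 UMIs per library. There Klrd1 was past 2-fold higher in the 2FF combination over anti-PD-L1 (1.27, 0.70 to 1.85), where 4.86% of genes were past 2-fold. Its log2 ratio was 1.24 (0.63 to 1.85) for the 2FF combination over 2FF. For the 2DG combination it was 1.66 (1.05 to 2.26) over anti-PD-L1 and 1.71 (1.16 to 2.26) over 2DG. The share of all genes was not taken for these other ratios, so they are not read as calls. The class held 40 cells in the 2DG combination and 51 in the 2FF combination. Klrk1 had 65 to 297 UMIs per library in monocytes and 132 to 276 in macrophages. In monocytes it was past 2-fold higher in 2DG (1.20, 7.15% of genes) and 2FF (1.37, 6.53%) over control. The control level there was low, with 65 Klrk1 UMIs of 17785966, beside 161 of 10825508 in 2DG and 208 of 11956080 in 2FF.

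Klrb1b, an inhibitory lectin-like receptor, was at 38.9 CPM in control macrophages and 111 to 157 in the other 5 libraries, and H2-Q7 also had its lowest macrophage value in the control library. Control was lowest for 24.4% of all macrophage genes with at least 50 UMIs. Plasmacytoid dendritic cells (9 to 28 per library) held H2-T23 at 121 to 421 CPM, and again 2DG (124) and anti-PD-L1 (121) were lowest. Only anti-PD-L1 (20 cells), 2DG (25) and the 2DG combination (28) reached the minimum of 20 cells. The 2DG combination had log2 ratios of 1.17 (0.49 to 1.85) over anti-PD-L1 and 1.13 (0.52 to 1.75) over 2DG. These rest on 22 to 60 UMIs per library.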
